A study of Mus musculus with 2 samples.

Results

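Myb and Hbs1l are neighbours on mouse chromosome 10 and are transcribed away from each other. Their upstream ends face an interval of 134994 bases, written below as the distal interval. The region described here runs from 30 kb beyond the 3′ end of Myb to 30 kb beyond the 3′ end of Hbs1l, chr10:21094935-21398898 on mm10, and spans 303964 bases. Every deposited DNase peak, footprint and run of low false discovery rate (FDR) touching it was taken. Peaks of the libraries that shared at least 1 base were joined into a site, which gave 23 sites out of 50826 in the genome. They came from 20 of 48286 peaks in replicate 1 and from 11 of 28837 peaks in replicate 2. The region also held 69 of 191945 footprints of replicate 1 and 41 of 125693 of replicate 2.

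The assay was DNase-seq, in which DNase I cuts open chromatin in nuclei and the cut ends are sequenced. The tissue was whole spleen of male B6CASTF1/J mice aged 14 days, an F1 cross of C57BL/6J and CAST/EiJ with no further allele or treatment named. There was 1 group of 2 libraries. The labels name 3 males for replicate 1 and 1 male for replicate 2, under a shared donor entry. With no second group there was no contrast to test, so the values below are descriptions, and a spread over the 2 libraries may be technical. In a whole tissue, more cells with an open site and a more open site per cell cannot be told apart.

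Myb encodes the transcription factor c-MYB, which keeps immature blood cells dividing, and its level falls as red cells mature. Hbs1l encodes a GTPase related to translation release factors that acts with Pelota to rescue stalled ribosomes. In mouse erythroid cells Myb is driven by enhancers spread over the distal interval, which bind GATA1, TAL1, LDB1 and KLF1 and contact the Myb promoter. The matching human interval is known for its association with red cell traits and fetal haemoglobin.

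The sequences below show what the sites called in both libraries are made of, since those 8 carry the comparison of promoter, intron and distal interval, and 1 further site of replicate 1 that holds a CTCF word. They are the reference (C57BL/6J) plus strand of mm10, 5′ to 3′, while the mice carried a CAST/EiJ allele as well. Capitals mark bases inside a footprint, a short stretch within open chromatin that was cut less than its surroundings, of either library. Distances are in kb from the 5′ end of Myb at chr10:21160984, positive towards Hbs1l and negative inside Myb. Transcribed bases of the promoter sites are left out.

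Within Myb, intron 1 held a pair of shared sites, and the third shared site covered the promoter.
-2.73 kb site (chr10:21158161-21158340): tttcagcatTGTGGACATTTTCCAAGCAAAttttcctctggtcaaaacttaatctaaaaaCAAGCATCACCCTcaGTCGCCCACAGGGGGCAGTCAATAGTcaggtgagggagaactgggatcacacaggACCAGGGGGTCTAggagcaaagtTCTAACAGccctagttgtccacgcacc
-1.88 kb site (chr10:21158961-21159240): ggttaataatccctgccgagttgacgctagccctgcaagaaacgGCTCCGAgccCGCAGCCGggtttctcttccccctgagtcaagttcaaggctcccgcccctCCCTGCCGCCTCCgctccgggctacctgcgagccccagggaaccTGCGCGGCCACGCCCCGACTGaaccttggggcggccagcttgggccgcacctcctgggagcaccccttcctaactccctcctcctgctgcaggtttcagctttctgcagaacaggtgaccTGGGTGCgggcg
Myb promoter, untranscribed side (chr10:21160985-21161120): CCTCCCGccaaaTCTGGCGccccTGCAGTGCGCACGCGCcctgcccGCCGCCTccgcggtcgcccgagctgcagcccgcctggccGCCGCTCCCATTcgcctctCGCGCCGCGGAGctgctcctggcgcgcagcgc

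In the distal interval, 3 shared sites lay far from both promoters, and the site at 28.2 kb was called in replicate 1 alone.
28.2 kb site (chr10:21189101-21189260): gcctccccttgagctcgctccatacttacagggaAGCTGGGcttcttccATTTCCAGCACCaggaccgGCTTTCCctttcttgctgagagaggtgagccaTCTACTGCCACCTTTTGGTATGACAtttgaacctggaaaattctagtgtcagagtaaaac
35.8 kb site (chr10:21196700-21196900): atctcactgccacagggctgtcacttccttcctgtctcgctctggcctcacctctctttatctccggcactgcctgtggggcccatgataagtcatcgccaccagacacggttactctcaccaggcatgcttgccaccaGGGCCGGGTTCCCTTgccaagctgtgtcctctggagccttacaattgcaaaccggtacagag
91.4 kb site (chr10:21252241-21252460): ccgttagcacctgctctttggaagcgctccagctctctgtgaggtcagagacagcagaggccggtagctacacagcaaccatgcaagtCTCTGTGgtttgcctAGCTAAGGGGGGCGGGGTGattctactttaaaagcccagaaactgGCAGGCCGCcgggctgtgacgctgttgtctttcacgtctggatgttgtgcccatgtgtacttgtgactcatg
107.9 kb site (chr10:21268821-21269040): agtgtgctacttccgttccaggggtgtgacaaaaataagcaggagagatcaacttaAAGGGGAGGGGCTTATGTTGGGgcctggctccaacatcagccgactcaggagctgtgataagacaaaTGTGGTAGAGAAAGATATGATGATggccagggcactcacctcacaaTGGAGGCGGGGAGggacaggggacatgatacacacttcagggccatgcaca

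At Hbs1l the shared sites were the promoter and a site in intron 5.
Hbs1l promoter, untranscribed side (chr10:21295901-21295978): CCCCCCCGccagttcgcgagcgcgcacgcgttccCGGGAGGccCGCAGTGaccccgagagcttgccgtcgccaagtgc
176.4 kb site (chr10:21337321-21337480): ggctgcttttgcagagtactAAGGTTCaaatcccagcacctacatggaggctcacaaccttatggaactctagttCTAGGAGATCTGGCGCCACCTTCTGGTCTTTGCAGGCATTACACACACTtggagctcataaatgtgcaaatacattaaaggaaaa

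Most peaks of the region lay around the first intron and promoter of Myb, across the distal interval, or at the start of Hbs1l, with 1 further site inside Hbs1l and 3 inside Aldh8a1. The deposited lists give 1 signal value per peak, the authors' own, whose scale the labels and files do not state. Each library came with 2 lists, and the list covering fewer bases was the main list. Of the 23 sites 8 were called in both libraries, 12 in replicate 1 alone and 3 in replicate 2 alone. Across the genome 49.7% of sites were called in both libraries, and 35.5% of those over 1000 bases from the start of any protein-coding gene. In the region 16 sites lay that far from a start site, and 6 of them were shared. No peak, footprint or run of FDR under 0.05 was listed in the 30 kb beyond the 3′ end of Myb in either library.

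**Figure D1:**
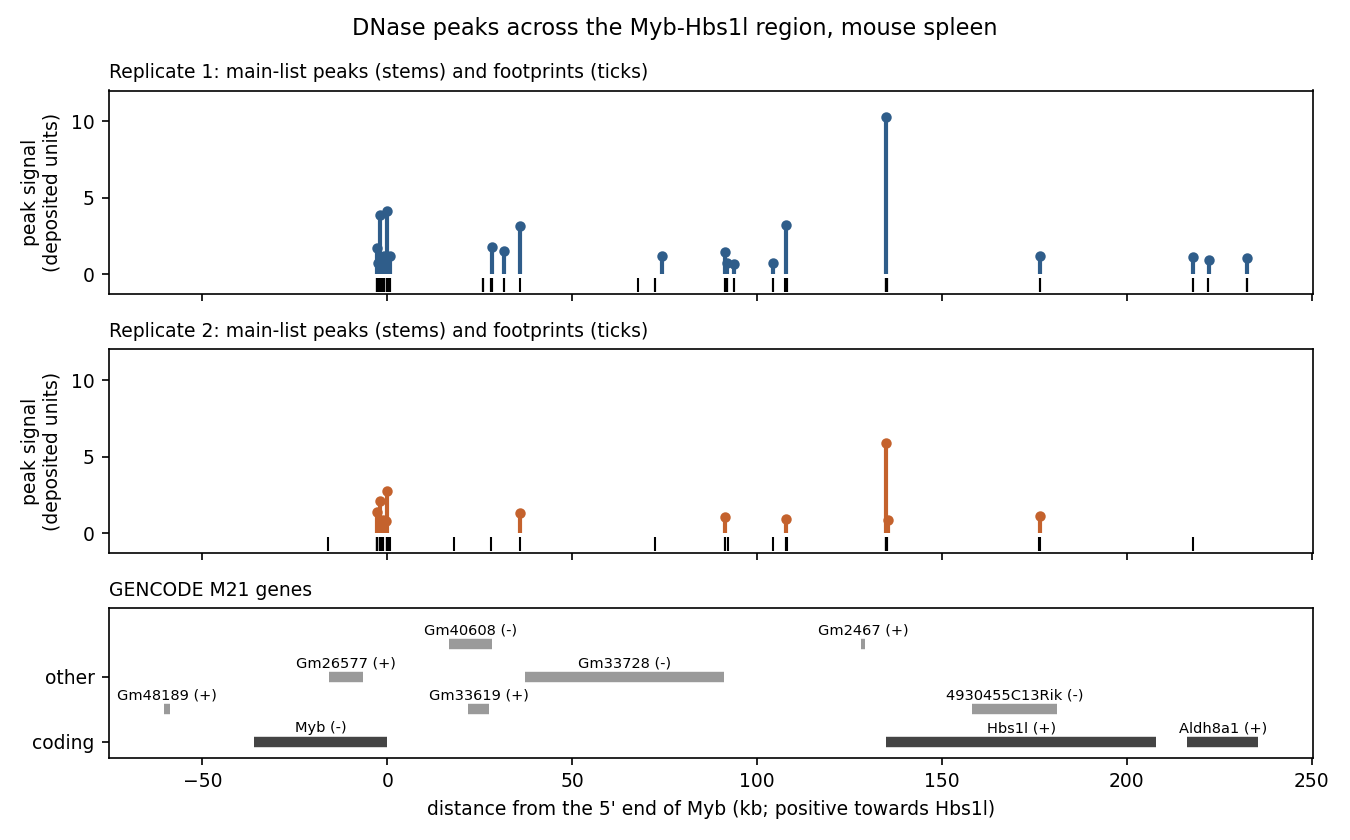
Main-list peaks as stems (height is the deposited signal) and footprints as ticks in replicate 1 (top) and replicate 2 (middle), by distance in kb from the 5′ end of Myb, with annotated genes and their strands below. The tallest stem of both libraries stands at the Hbs1l promoter (10.3 and 5.86), and in replicate 1 the stems at 35.8 and 107.9 kb (3.19 and 3.22) are the highest of the interval over 1000 bases from the start of a protein-coding gene.

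The Myb promoter was open in both libraries, at a level below that of most promoters with a peak. Its peak, chr10:21160901-21161120, had a signal of 4.15 in replicate 1 and 2.76 in replicate 2 (mean 3.46 ± 0.988, SD, n = 2). Over genes with a promoter peak (within 1000 bases of a start site) the median was 7.03 and 4.79, and 33.7% and 28.4% of those genes had a signal at or below that of Myb. Over all 21938 protein-coding genes, counted as 0 where no peak was called, Myb ranked 8251 and 8075 from the top. The protein-coding genes nearest to it in promoter signal over the 2 libraries, by distance on the log2(signal + 1) scale, were Fdx1l and Gm49373, which had the same values (4.15 and 2.77), and Rpp30 (4.15 and 2.77).

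The Hbs1l promoter was more open than that of Myb in both libraries. Its peak, chr10:21295901-21296060, covered exon 1 and had a signal of 10.3 in replicate 1 and 5.86 in replicate 2 (mean 8.06 ± 3.11, SD, n = 2). Both values lay above the median of promoters with a peak, with 65.5% and 59.7% of those genes at or below. Its rank over all genes was 4294 and 4546. The nearest genes in promoter signal were Rpl34 (10.2 and 5.86), Mak16 (10.3 and 5.85) and Rab3il1 (10.2 and 5.85). A promoter peak was called in each library at 11220 genes, or 51.1% of the 21938.

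The other annotated starts of the region had a low peak or none. Aldh8a1, an aldehyde dehydrogenase gene beyond the 3′ end of Hbs1l, had no promoter peak in any of the 4 lists. Gm33728, a long noncoding RNA transcribed towards Myb from 91.1 kb, had 1.47 and 1.07 at its start. Gm40608, another long noncoding RNA, started inside the 28.2 kb site, with 1.80 in replicate 1 and, in the larger list alone, 0.740 in replicate 2. Gm33619 had 0.890 in the larger list of replicate 1 alone, and Gm26577, antisense within Myb, 0.699 in that of replicate 2 alone. Gm48189, the pseudogene Gm2467 and 4930455C13Rik, antisense within Hbs1l, had no peak within 1000 bases of a start in any of the 4 lists.

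The first intron of Myb held 5 sites within 3 kb of the 5′ end. The shared site at -1.88 kb had a signal of 3.89 in replicate 1 and 2.09 in replicate 2, close to the 4.15 and 2.76 of the promoter itself. It was GC-rich (66.4% G and C, with 19 CG pairs). The shared site at -2.73 kb was lower, at 1.74 and 1.41, and had 48.9% G and C. Both lay over 1000 bases from any start site.

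The other 3 intron sites were each in the main list of 1 library. The site at -0.964 kb had 1.18 in replicate 1. Its neighbour at -1.13 kb had 0.862 in replicate 2 with 4 bases between them, and the larger list of replicate 2 joined both into a single peak of 0.862. The site at -2.47 kb had 0.772 in replicate 1, and replicate 2 listed no run of FDR under 0.05 there. A site in exon 1, at -0.266 kb, had 0.797 in the main list of replicate 2 alone. Replicate 1 listed runs with an FDR down to 4.76e-06 there and 3.13e-10 at -1.13 kb, but no peak. The peaks at -2.47 and -0.266 kb were absent from the larger list of their own library, so the lists are not nested. A site at 0.656 kb upstream had 1.20 in replicate 1 and 0.699 in the larger list of replicate 2.

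The distal interval held 9 sites over 1000 bases from the start site of a protein-coding gene, 3 of them shared, between 28.2 and 107.9 kb upstream of Myb. The other 6 were called in replicate 1 alone. Of those 6, 5 touched a run of FDR under 0.05 in replicate 2 and 3 had a peak in its larger list. Replicate 2 called no site here that replicate 1 lacked.

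The 107.9 kb site, 27.0 kb upstream of Hbs1l, had a signal of 3.22 in replicate 1 and 0.968 in replicate 2. The 35.8 kb site had 3.19 and 1.33. In replicate 1 these were higher than the other 7 distal sites and placed at 89.9% and 89.7% of all main-list peaks over 1000 bases from a start site. In the shorter main list of replicate 2 they placed at 29.4% and 51.1%. The lists differ in length and lowest signals, so a place in one is not comparable with a place in the other. The 91.4 kb site had 1.47 and 1.07, 127 bases from the annotated start of Gm33728, and placed at 63.1% and 36.2%.

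The remaining 6 distal sites were in the main list of replicate 1 alone. The 28.2 kb site had 1.80, the 31.6 kb site 1.53 and the 74.4 kb site, inside Gm33728, 1.18. In replicate 2 the lowest FDR was 0.0251 at 31.6 kb and 0.0429 at 74.4 kb, with no peak in either list. The sites at 92.0, 93.7 and 104.4 kb were low, at 0.730, 0.713 and 0.730. The larger list of replicate 2 had 0.577 at 92.0 kb and 0.683 at 104.4 kb and nothing at 93.7 kb, where it also had no run of FDR under 0.05.

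**Figure D2:**
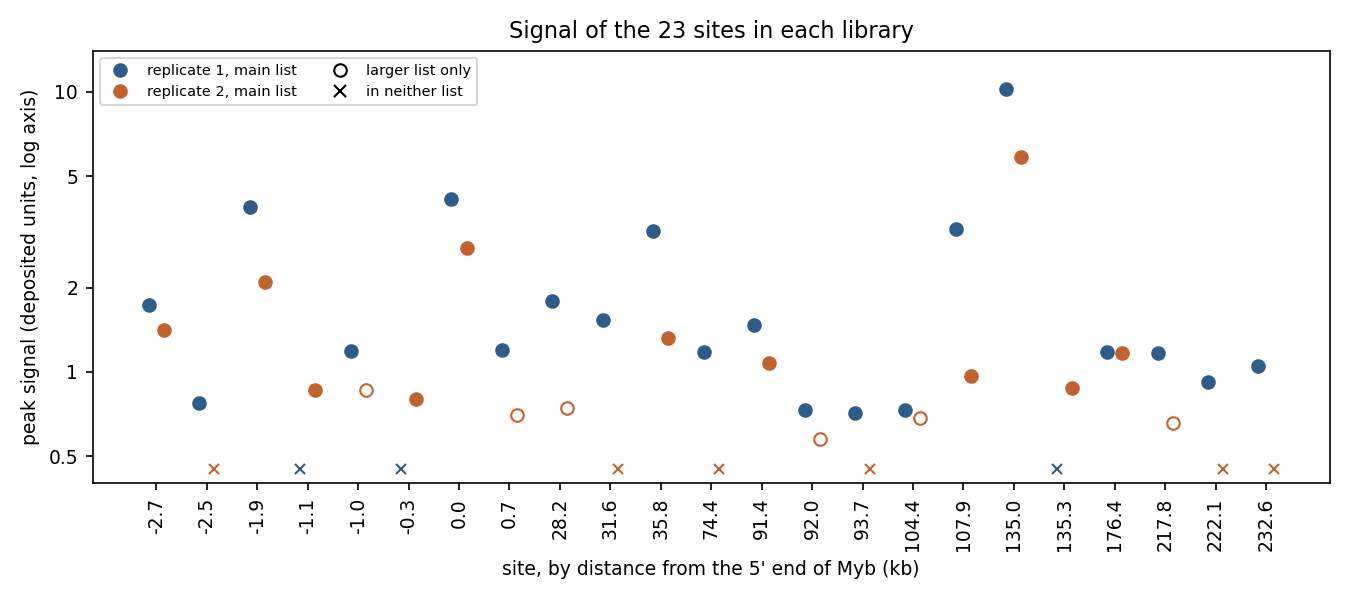
Deposited signal (log axis) of each of the 23 sites in replicate 1 (blue) and replicate 2 (orange), ordered by distance in kb from the 5′ end of Myb. Filled points are main-list peaks, open points are peaks in the larger list alone and crosses on the lower edge mark a library with a peak in neither list. The 8 sites with 2 filled points all have the replicate 1 point higher, with the widest gap on this axis at 107.9 kb (3.22 and 0.968).

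The larger lists held 7 further sites, 6 of them in the distal interval. In replicate 1 they were at 25.9, 67.7, 72.5, 96.5 and 107.5 kb, with signals of 0.420 to 0.890. In replicate 2 they were at 18.01 and 72.5 kb (0.911 and 0.626) and at the start of Gm26577. The site at 72.5 kb was in the larger list of both libraries and in neither main list.

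Long stretches of the distal interval held no called peak. Whether the sites cluster more than a random spread would was not tested. No peak in any of the 4 lists fell in the 31.7 kb between 35.9 and 67.6 kb, most of which is the body of Gm33728. The same held for the 26.8 kb next to the Hbs1l promoter, from 108.1 to 134.9 kb, and for the 17.2 kb from 0.738 to 17.9 kb. No run of FDR under 0.05 was listed in either library over nearly the same stretches (31.6, 26.6 and 17.1 kb).

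Even so, the interval was dense in peaks for its length. Of 2841 intervals of at least 100 kb between neighbouring protein-coding genes, it ranked 38 in replicate 1, with 8.15 peaks per 100 kb against a median of 0.354. In replicate 2 it ranked 103, with 2.96 against a median of 0, and 52.1% of intervals held no peak. These counts include the Myb promoter peak and the site at 0.656 kb. With peaks within 1000 bases of a start site left out everywhere, an alternative chosen after seeing the data, the ranks were 45 and 109. By footprints it ranked 65 and 83.

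**Figure D3:**
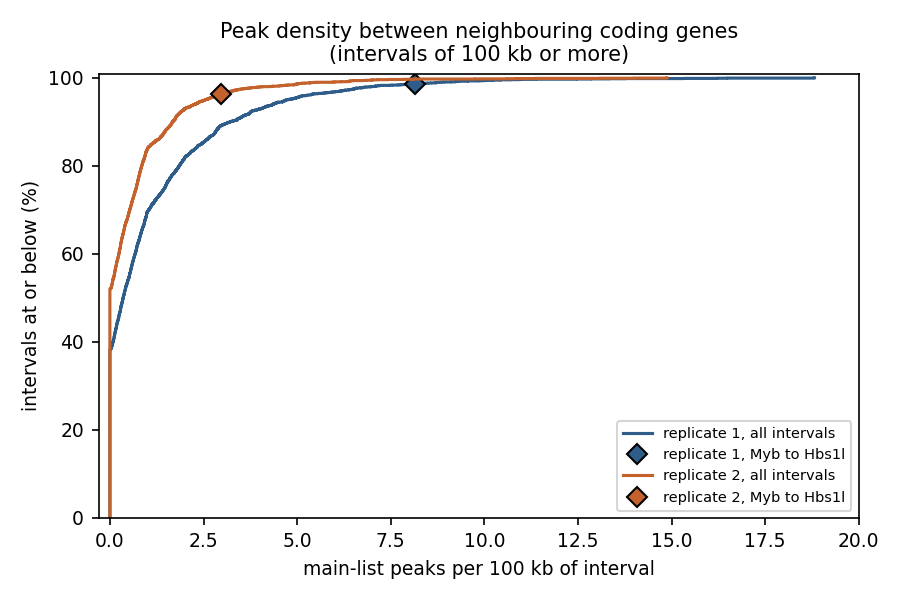
Cumulative share of 2841 intervals of at least 100 kb between neighbouring protein-coding genes (vertical axis, %) by main-list peaks per 100 kb (horizontal axis), for replicate 1 (blue) and replicate 2 (orange). The diamonds mark the Myb to Hbs1l interval, at 98.7% in replicate 1 and 96.4% in replicate 2.

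Open bases were counted as well, whether or not a peak was called. Bases with an FDR at or under 0.05 made up 3.30% of the distal interval in replicate 1 and 1.54% in replicate 2. Over chromosome 10 they were 0.971% and 0.564%. In Myb the shares were 6.31% and 4.51%, and in Hbs1l 1.24% and 0.967%, also above those of chromosome 10.

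Against 6 sites in Myb and 11 in the distal interval, where the Myb promoter was counted, Hbs1l held 3, including its promoter. The site at 135.3 kb, in its intron 1, had 0.878 in replicate 2 alone, and replicate 1 listed a run with an FDR down to 6.17e-08 there but no peak. The shared site in intron 5, at 176.4 kb, had nearly equal signals of 1.18 and 1.16, and repeats made up 65.0% of its bases. Past the 3′ end, 3 sites in introns of Aldh8a1 were called in replicate 1 alone, with 1.17, 0.923 and 1.05, and the first of them had 0.659 in the larger list of replicate 2.

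Signals were higher in replicate 1 at all 8 shared sites, as they were at 88.6% of the 25244 shared sites of the genome. Such a ratio assumes that the heights of the libraries share a scale, which no label or file states. The median log2 ratio of replicate 1 to replicate 2 was 0.70 in the region, from 0.01 at 176.4 kb to 1.74 at 107.9 kb, and 0.58 over all shared sites. At the Myb promoter the ratio was 1.51 (log2 0.59) and at the Hbs1l promoter 1.75 (log2 0.81). It was 2.41 (log2 1.27) at 35.8 kb and 3.33 (log2 1.74) at 107.9 kb. Of all shared sites 94.2% had a ratio at or below that of the 35.8 kb site and 99.6% at or below that of the 107.9 kb site. The 91.4 kb site, in the same interval, had 1.37 (log2 0.45), with 39.0% of all shared sites at or below. Among the 10408 shared sites over 1000 bases from a start site, whose median log2 ratio was 0.39, the shares at or below were 91.2% for 35.8 kb, 99.2% for 107.9 kb and 54.1% for 91.4 kb.

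**Figure D4:**
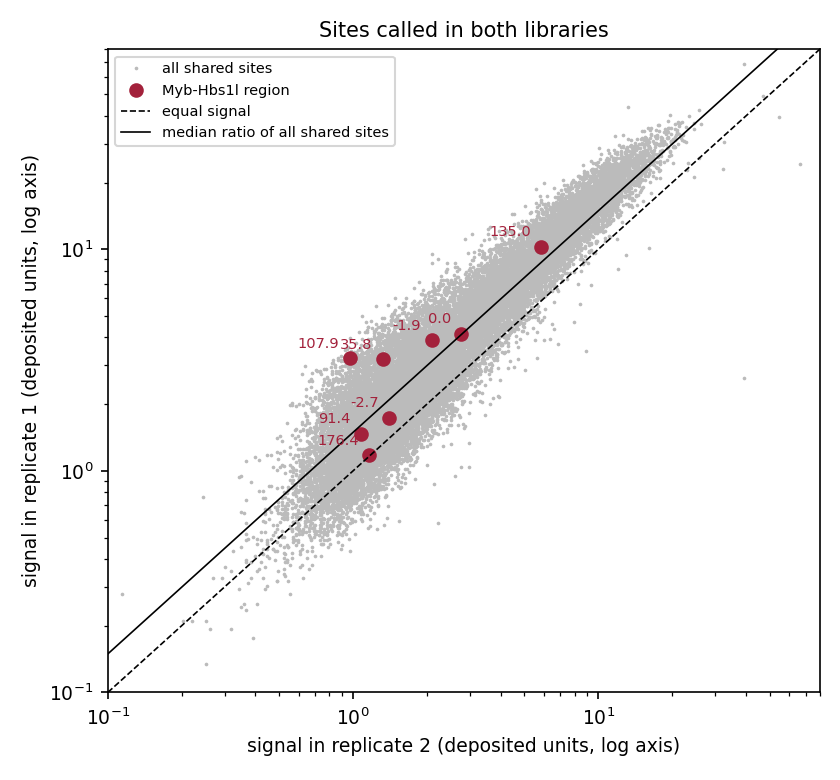
Signal in replicate 1 against replicate 2 (log axes, deposited units) at the 25244 sites called in both libraries (grey) and the 8 of the Myb-Hbs1l region (red, labelled in kb from the 5′ end of Myb). The dashed line is equal signal and the solid line the median ratio of all shared sites. The sites at 35.8 and 107.9 kb lie farthest above the solid line among the 8, with log2 ratios of 1.27 and 1.74, and the site at 176.4 kb lies on the dashed line.

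Promoter signals of cell type markers were compared between the libraries as well. Red cell markers (Gata1, Klf1, Epor and Tfrc) had a promoter peak in both libraries at 4 of 4 genes, with a summed signal of 39.97 in replicate 1 and 20.4 in replicate 2. Less the median log2 ratio of 0.70 over all genes peaked in both, their log2 ratios ran from 0.14 (Gata1) to 0.46 (Klf1), and none was at 0. The B cell markers summed to 24.7 and 10.6, with 4 of 5 peaked in both and log2 ratios of 0.18 to 0.86 above that median. T cell markers summed to 8.99 and 6.85 (2 of 4 in both, Cd3e and Cd4 at 0), and macrophage markers to 4.73 and 2.87 (1 of 4 in both, Spic and Csf1r at 0). Relative to that median the T cell genes peaked in both differed in sign (log2 0.44 for Cd3d and -0.55 for Lck), and the macrophage gene Slc40a1 lay below it (-0.21). Against the same median, genes of the regulator, MYB and HBS1L lists described below ran from -0.40 (Kit) to 0.59 (Gspt1). The spread of this ratio over all genes was not computed, so the marker offsets were not set against it. The part of cell type in the ratios at 35.8 and 107.9 kb was not tested. Of the spleen stroma markers Tlx1 and Nkx2-5 had no promoter peak and Madcam1 had 1.59 and 1.76, or -0.85 relative to the median ratio. The 3 liver markers were at 0 in both libraries. Muscle markers summed to 2.79 and 2.97 (Ckm, at -0.79 relative to the median ratio, with Acta1 at 0), pancreas markers to 4.46 and 2.24 (1 of 3 in both, Cela1 at 0.03 relative to the median ratio, with Amy2a5 at 0) and nerve markers to 0.697 and 0 (Gad1 at 0).

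Footprints marked which bases of the open sites were called as cut less than their surroundings. Of the peaks of the region, 19 of 20 in replicate 1 and 9 of 11 in replicate 2 held a footprint, where 89.5% and 88.4% of all main-list peaks did. The exception in replicate 1 was the 74.4 kb site, and those in replicate 2 were its low peaks at -0.266 and 135.3 kb. Of the 69 footprints of replicate 1, 26 touched a footprint of replicate 2, and 27 of the 41 of replicate 2 touched one of replicate 1. The same share over all footprints of the genome was not computed, so these counts cannot be called high or low. In the distal interval the 107.9 kb site held 3 in each library, and all 3 of replicate 1 touched those of replicate 2. The 35.8 kb site held 1 in each, on the Hbs1l side of its centre.

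Words that blood transcription factors are known to recognise were searched on both strands in 300 bases around the centre of each site. They were set beside the share of all 29324 main-list sites over 1000 bases from a start site that hold the same word in the same length. A match is a description of the letters and says nothing of binding. The GATA words (AGATAA or TGATAA, or either of these ending in G) were in 6 of the 16 such sites of the region, against 37.9% in the genome, and in 4 of the 9 of the distal interval. The composite in which CTG stands 7 or 8 bases before AGATAA or TGATAA, which overlaps the GATA word, was in none of the 16, against 3.69%. E-box words (CAGCTG or CAGGTG) were in 6 against 44.7%, and RUNX words (TGTGGT or TGCGGT) in 4 against 30.5%. The counts of GATA, E-box and RUNX words were near the background.

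The remaining words were each in 1 to 4 of the 16 sites. CACCC box words (CCACACCC or CCCCACCC) were in 1 of the 16 against 13.6%, and GC boxes (GGGCGG) in 3 against 15.1%. ETS words (CCGGAAG or AGGAAGT) were in 2 against 18.5%, and MYB's own words (CAACTG or CAACGG) in 4 against 19.3%. The NFY word (CCAAT) was in 2 against 28.9%. The CTCF word (CC, any 3 bases, AG, any 2 bases, GGC) was in 4 against 26.2%.

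The CTCF words all lay inside a footprint widened by 5 bases, at -2.73 kb in intron 1 of Myb, at 28.2 kb, at 176.4 kb in Hbs1l and at 217.8 kb in Aldh8a1. CTCF is a zinc finger protein that anchors chromatin loops and insulates neighbouring domains. These are 4 of the 16 sites far from a start, near the 21.4% of such sites in the genome that held a CTCF word in a footprint. This and the later genome shares of words in footprints were counted more loosely, over joined footprints of both libraries without the 300-base limit. In intron 1 of Myb the footprint over the word had the same first and last base in both libraries, chr10:21158236-21158261. At 176.4 kb the word lay in footprints of both libraries, and at 28.2 and 217.8 kb in a footprint of replicate 1.

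None of the 16 sites held a GATA word in a footprint widened by 5 bases, where 7.87% of such sites in the genome did. At 217.8 and 232.6 kb, however, a GATA word ended directly beside a footprint of replicate 1 and just missed the widened stretch. The count of 0 thus depends on where those footprints were taken to begin. ETS and MYB words were in a widened footprint in 0 of 16 sites, against 3.71% and 3.78% in the genome. RUNX words were in one in 3 of 16, against 8.44%. No difference between words was tested. In the 107.9 kb site TGATAA began 2 bases from the centre, in a stretch printed in lower case above. A RUNX word, TGTGGT, began 14 bases from the centre and lay in a footprint of replicate 1. RUNX1 and its partner CBFB are needed for blood stem cells to form and act with GATA factors in megakaryocytes. In the 35.8 kb site a pair of GATA words began at -43 and -15 bases from the centre, on the Myb side, and its footprints were on the other side. In the 91.4 kb site a GC box lay in footprints of both libraries, widened by 5 bases as above. A RUNX word there lay partly in a footprint of replicate 1, and wholly once it was widened.

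The genes known to act on or with the members were mostly open. Among regulators of the locus, 13 of 17 had a promoter peak in both libraries, where 51.1% of all genes did. Highest by the mean of the libraries were Zfpm1 (28.6 and 17.7), the FOG1 cofactor of GATA1, Tcf3 (12.7 and 9.39), an E protein that pairs with TAL1, and Lyl1 (14.0 and 7.11), a relative of TAL1. Erg, an ETS factor of stem cells, was without a peak in both main lists. The median promoter signal of the 17 was 4.42 and 2.51, beside 1.29 and 0.838 over all protein-coding genes. The lists were chosen for their role in blood cells or in translation, so their shares are descriptions.

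All 13 genes of the MYB family and its partners had a promoter peak in both libraries, against 51.1% of all genes. Their median signal was 8.61 and 6.26. Fbxw7 (27.5 and 15.3), a ubiquitin ligase subunit, and Nlk (25.3 and 11.6), a kinase, are known to promote the breakdown of c-MYB. Pim1 (22.1 and 11.9) encodes a kinase that binds it. The related factors Mybl1 and Mybl2 had 4.20 and 2.78, and 14.7 and 7.92.

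Of the MYB targets, 7 of 11 (63.6%) were open in both libraries, against 51.1% of all protein-coding genes. For 11 genes that is near the share over all genes. Their median signal was 2.80 and 1.62. Highest by the mean of the libraries were Ccnb1, or cyclin B1 (11.5 and 6.29), Mat2a, which makes S-adenosylmethionine (9.14 and 6.38), and the cell cycle kinase Cdk6 (7.05 and 5.07). Cd34, a surface protein of progenitors, was without a peak in both main lists. Of the partners of HBS1L, 10 of 11 were open in both, against the same 51.1%, with a median of 14.97 and 8.28. The release factor genes Etf1 (23.6 and 10.8) and Gspt1 (21.4 and 8.75) and the ribosome recycling factor Abce1 (18.4 and 11.4) were highest by the mean of the libraries, while Gspt2, a close relative of Gspt1, was without a peak in both main lists.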

How the data were processed

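Alignments were to mm10, per the labels. Which aligner and which callers of peaks and footprints were used, with versions, was not given in the sources used here. For each library the authors deposited 2 peak lists with a signal value per peak, runs of bases with an FDR under 0.05, and footprints. The score column of the footprints held 0.01 throughout, taken as a p-value or FDR limit. The depth of the libraries is unknown, and heights carry no counting interval. The main list of replicate 1 had 48286 peaks over 9.46 Mb and that of replicate 2 had 28837 over 5.72 Mb.

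Genes came from GENCODE M21, and sequence from the mm10 (GRCm38) reference. Promoter signal was the highest peak within 1000 bases of any start site. Overlaps and words were computed with Python 3.11.15, NumPy 2.4.6 and pysam 0.24.0 and tested on simulated data. Named genes were Myb and Hbs1l, genes starting in the region, the 3 nearest to each in promoter signal, and for each list the 3 highest and the first without a peak; Mybl1 and Mybl2 were added as relatives of Myb after their values were seen. Members and lists were chosen with earlier results of these data known. 1 marker gene of the lists is not reported here.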

Additional observations from a re-analysis of the deposited data

How the results depend on the processing

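Of 69 alternative values for 17 results, 54 stayed within the spread of the libraries or within 1.5 times the reported count, and 15 moved further. For the signal ratio the spread was that of the shared sites. No result was scored by sign, so a change of direction could not be recorded. For the interval rank and the promoter signals, leaving out a library stays within the spread by construction. With the larger lists the distal interval held 13 peaks on average instead of 7.5, and 15 sites of the region were shared instead of 8, with 9 instead of 4 in the interval. With the strongest 50% of each main list the region held 5.5 peaks on average instead of 15.5, and the interval 3. Then 3 sites were shared, and the 1 in the interval was the Myb promoter peak. It was the only interval peak of replicate 2 that was kept, since the others were below its main-list median of 1.79. The rank of the interval fell from 97.6% to 93.5% on average (98.0% in replicate 1 and 89.1% in replicate 2). Against the larger list of replicate 2, an alternative chosen after seeing the data, 14 sites were shared. Leaving out a library gave 4 to 11 peaks in the interval, 11 to 20 in the region, 41 to 69 footprints, and promoter signals of 2.76 to 4.15 for Myb and 5.86 to 10.3 for Hbs1l. At an FDR of 0.001 the open bases averaged 4156.5 instead of 6454.5. Among the 8 shared sites GATA words were in 2, and in 0 when limited to footprints; over all 23 sites GATA, RUNX and CTCF words were in 6, 6 and 4 instead of 2, 2 and 2. No paired analysis was possible because there was 1 group. Unknown depth and signal scale limit every comparison of heights between the libraries, and 2 libraries give no check of a difference between them.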
